A study of Mus musculus with 12 samples.

Results

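Amino acids filtered at the glomerulus are taken back by transporters of the kidney tubule, and 9 of their genes are described here in mouse kidney: Slc1a1, Slc1a5, Slc3a1, Slc3a2, Slc6a18, Slc6a19, Slc7a7, Slc7a8 and Slc7a9. They were chosen by name, not by a measured value, from 24532 gene identifiers, and all 9 passed the filter on low values. Total RNA of whole kidney was sequenced from fasted mice in 4 groups of 3 libraries, numbered 1 to 3 within a group. Wild-type mice carried the strain label C57BL/6 and received vehicle or GW4064, a synthetic agonist of FXR, the bile acid receptor. Knockout mice carried the strain label Nr1h4tm1Gonz/J, a targeted germline allele of the gene for this receptor (farnesoid X receptor), and received the same treatments. A time of 6 h is labelled for the GW4064 libraries and none for vehicle. Every group was fasted overnight, and no library was labelled as treated with cisplatin, the drug named in the title of the series. The strain labels differ between the genotypes, so an effect of the Nr1h4 allele and a difference in strain background cannot be told apart. Age, sex and litter are not in the labels, so whether the groups differ in them is not known. Whether the libraries are biological replicates is not stated. The p-values reflect only the spread of these libraries within their groups, shared over the 4 groups and drawn toward that of other genes of similar level.

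Most reabsorption of amino acids takes place in the proximal tubule, in steps on opposite faces of the cell. On the apical face, sodium-coupled carriers and exchangers take amino acids out of the filtrate. On the basolateral face, exchangers and facilitated carriers pass them to the blood. Several of these carriers are made of a heavy chain, encoded by Slc3a1 or Slc3a2, which brings a catalytic light chain of the Slc7 family to the membrane. Inherited loss of human SLC3A1 or SLC7A9 causes cystinuria, loss of SLC7A7 causes lysinuric protein intolerance, and loss of SLC6A19 causes Hartnup disorder.

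The deposited coverage corresponded to 2.86 to 4.27 mapped gigabases per library. Levels are given in TPM, a measure of transcript abundance scaled for gene length and for the total of each library. Nr1h4 averaged 244.2 and 212.2 TPM in wild-type vehicle and GW4064 libraries against 116.3 and 123.2 TPM in the knockout groups, so the knockout labels went with a lower but not absent transcript, and gene-level values do not show which exons were read. The summed level of 16 proximal tubule markers was 64778 to 82074 TPM per library, of which Kap alone gave 47901 to 63992. That sum was lower in the wild-type vehicle libraries (64778 to 65431 TPM) than in any other library (70289 TPM and above). Kap by itself showed the same split, with 47901 to 48358 TPM for wild-type vehicle against 52409 TPM or more elsewhere. The lower sum is therefore not evidence of a lower level of the other markers, whose sum without Kap was not tested. Markers of 15 genes of other kidney cells summed to 5551 to 6395 TPM, and 4 fat markers to 1.5 to 37.0 TPM, with none of the 4 at 0. The haemoglobin gene Hbb-bs ranged from 1.99 to 1617 TPM. In whole kidney, fewer cells of a type and less RNA per cell cannot be told apart.

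Slc3a1 was the most abundant of the 9 transcripts and Slc1a5 the least. Mean levels over the 12 libraries were 1077 TPM for Slc3a1 and 380.2 TPM for Slc6a18. They were 299.8 TPM for Slc6a19 and 226.3 TPM for Slc1a1. Slc7a9 averaged 174.5 TPM and Slc7a7 141.3 TPM. At the lower end, Slc3a2 averaged 84.0 TPM, Slc7a8 66.6 TPM and Slc1a5 30.7 TPM. Among the 14488 genes tested, Slc3a1 stood at percentile 99.5 and Slc1a5 at percentile 63.5 of mean level. Neighbours in this order were in the same order in 12 of 12 libraries, with 3 exceptions. Slc6a18 was above Slc6a19 in 10 libraries, in only 1 of 3 of the wild-type GW4064 libraries. Slc6a19 was above Slc1a1 in 11 libraries. Slc3a2 was above Slc7a8 in 10 libraries, in only 1 of 3 of the wild-type vehicle libraries. The highest library was 1.25 times the lowest for Slc1a1 and 1.82 times the lowest for Slc6a19, and the other 7 lay between.

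**Figure D1:**
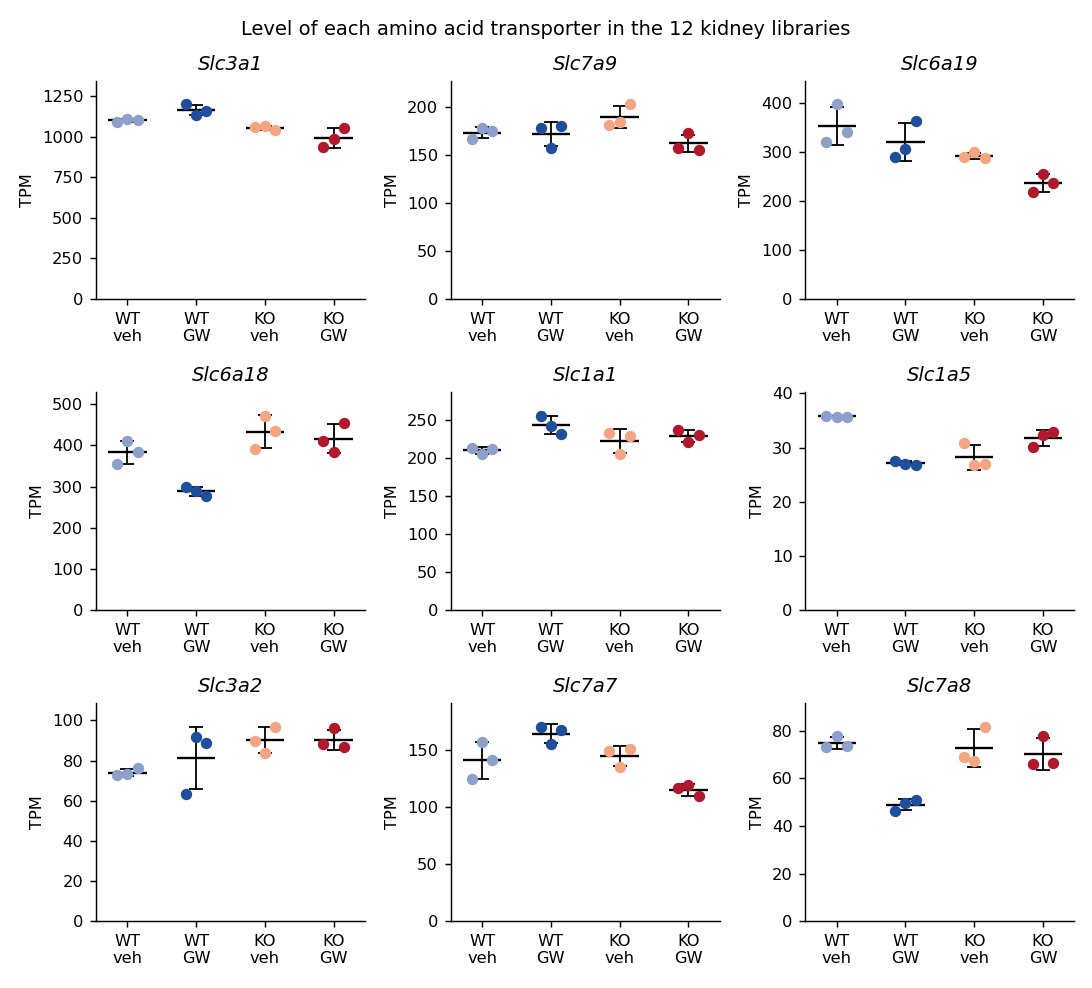
Level of each of the 9 transporter genes in TPM (vertical axis, from 0, a panel per gene) in wild-type (WT) and knockout (KO) libraries given vehicle (veh) or GW4064 (GW); points are libraries, lines are group means and whiskers are SD (n = 3). Slc7a8 sits at 46.3 to 51.1 TPM in the wild-type GW4064 libraries and at 65.9 to 81.7 TPM in the other 9.

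After GW4064 in wild-type mice, 3 of the 9 transporters fell (Slc7a8, Slc6a18 and Slc1a5) and 1 rose (Slc1a1). The 3 falls were called without each of the 12 libraries, while the Slc1a1 call was kept only on removal of knockout vehicle library 1 or 2. A gene was called changed at an adjusted p under 0.05 in limma, after Benjamini-Hochberg adjustment over all 14488 genes tested. Over all genes 4.8% were called in this comparison, 2.48% higher and 2.32% lower. In the knockout 0 of the 9 were called for GW4064 by limma, where 0.0138% of all genes were called. At an unadjusted p under 0.05 that comparison held 4 of the 9, Slc1a5, Slc6a19, Slc7a7 and Slc7a9, against 10.8% of all genes. The unadjusted p of Slc7a7 there was 0.00115 (limma), below the 0.00228 of Slc1a1 in wild type, which was called. An absent call in the knockout thus does not show an absent change. On vehicle, 1 of the 9 was lower in the knockout (Slc1a5) and 0 were higher, where 12.9% of all genes were called, 3.19% higher and 9.73% lower. Under GW4064, 3 were higher in the knockout (Slc6a18, Slc7a8, Slc1a5) and 3 lower (Slc7a7, Slc3a1, Slc6a19), where 18.5% were called, 7.08% higher and 11.4% lower. The response to GW4064 differed between genotypes for 3 of the 9 (Slc1a5, Slc7a7 and Slc7a8), where 3.19% of all genes were called, 1.47% with a higher and 1.72% with a lower response in the knockout. Median log2 differences of the 9 after GW4064 were -0.01 in wild type and -0.06 in the knockout. They were 0.04 between genotypes on vehicle and -0.08 under GW4064. The medians over all genes tested were -0.03, 0.02, -0.09 and -0.03. These comparisons share libraries with one another, so their counts are not independent.

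The counts over all genes depended on single libraries. For GW4064 in wild type, 696 genes were called, 360 higher and 336 lower, and median-of-ratios scaling gave 458 and 226. Without wild-type vehicle libraries 1 or 3 that count was 449 or 390, and without wild-type GW4064 libraries 1 or 2 it was 337 or 413. Between genotypes on vehicle 1872 genes were called, 462 higher and 1410 lower, and median-of-ratios scaling gave 846 and 533. Leaving out wild-type vehicle library 1 or 3, or knockout vehicle library 1 or 2, gave 961, 913, 1155 or 1117. Under GW4064 2677 genes were called, 1026 higher and 1651 lower. Median-of-ratios scaling gave 1243 and 1317, and 1732 were called without wild-type GW4064 library 1. For the difference between responses 462 genes were called, 213 higher and 249 lower, and median-of-ratios scaling gave 138 and 362. Without wild-type vehicle library 1 or 3 that count was 283 or 257, and without wild-type GW4064 library 1 or 2 it was 220 or 298. It was 224 without knockout vehicle library 1 and 272 without knockout GW4064 library 3. The count of 2 genes for GW4064 in the knockout was 31 without knockout vehicle library 2 and 51 without knockout GW4064 library 2, and 0 to 2 without any other library.

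**Figure D2:**
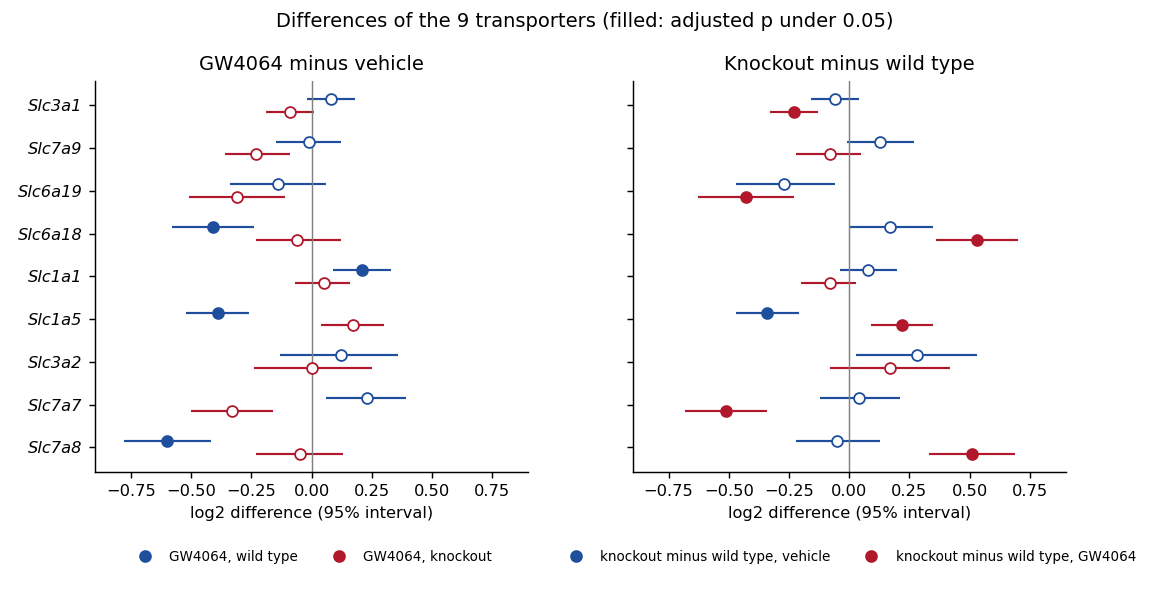
Log2 difference on the log2(TPM + 0.5) scale (horizontal axis) of each transporter gene (vertical axis) for GW4064 minus vehicle (left) and knockout minus wild type (right), with 95% confidence intervals from limma; filled points passed an adjusted p of 0.05. For GW4064 in wild type the values run from -0.60 (Slc7a8) to 0.23 (Slc7a7), and 0 of the 9 points for GW4064 in the knockout are filled.

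The largest log2 difference of a member between 2 groups was the fall of Slc7a8 after GW4064 in wild type. Slc7a8 encodes LAT2, an exchanger of neutral amino acids, and Slc7a7 encodes y+LAT1, which exports cationic amino acids in exchange for neutral ones and sodium. Both genes lie on the minus strand of chromosome 14 in mm10, Slc7a7 (Entrez Gene 20540) at chr14:54369442-54417702 and Slc7a8 (Entrez Gene 50934) at chr14:54722215-54781886. They are 304.5 kb apart, with 17 other deposited entries between them. The 250 bases before a RefSeq start site of each, from the GRCm38.p6 promoter table and read on the minus strand, are shown because the response to GW4064 differed between genotypes in opposite directions for these 2 members. The window of Slc7a7 is chr14:54417945-54418194, before its most upstream RefSeq start, and that of Slc7a8 is chr14:54781887-54782136, before its deposited start. Capitals mark a match to TGATGNAA, a form of the amino acid response element bound by ATF4 and its partners.
Slc7a7: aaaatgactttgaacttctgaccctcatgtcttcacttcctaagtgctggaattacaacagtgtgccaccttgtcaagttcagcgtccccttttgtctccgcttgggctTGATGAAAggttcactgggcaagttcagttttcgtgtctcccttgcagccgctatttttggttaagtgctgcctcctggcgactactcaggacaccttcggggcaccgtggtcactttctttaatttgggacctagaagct
Slc7a8: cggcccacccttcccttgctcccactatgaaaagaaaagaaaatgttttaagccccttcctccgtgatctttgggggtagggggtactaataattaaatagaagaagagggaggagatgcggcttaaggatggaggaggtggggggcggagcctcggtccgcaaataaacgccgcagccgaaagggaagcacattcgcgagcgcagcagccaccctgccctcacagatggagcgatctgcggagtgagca
The match in Slc7a7, TGATGAAA, begins 141 bases before the start. A second RefSeq start of Slc7a7, the deposited one, has TGATGCAA 243 bases before it. The other Slc7a7 windows searched held no TGATGNAA. On either strand TGATGNAA was found in 3.45% of 32851 RefSeq promoter windows of the same length, and the Slc7a8 window held none. That share is per window, and Slc7a7 had more windows searched than Slc7a8. The nuclear receptor core motif AGGTCA, found in 14.0% of windows, was in neither window shown. It was found 38 bases before a downstream Slc7a7 start and 63 bases before the deposited start of Slc7a9. The classical FXR element, AGGTCA followed by any base and TGACCT, was in 0.00609% of windows (2 of 32851). It was in none of the windows of the members searched, but an exact match is too rare for its absence to be informative. The promoter table held 7 of the 9 members. Slc1a5 and Slc6a18, which fell after GW4064 in wild type, had no entry and were not searched. These matches are letters in a window and were not tested as binding sites.

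Slc7a8 fell after GW4064 in wild-type kidney and not detectably in the knockout. It stood at 73.1, 77.6 and 73.4 TPM in wild-type vehicle libraries and at 46.3, 49.6 and 51.1 TPM in wild-type GW4064 libraries. Every GW4064 library was below every vehicle library, by at least 21.9 TPM. The mean fell by 34.4%, a log2 difference of -0.60 ± 0.08 (limma, adjusted p = 0.0013). Knockout libraries gave 68.8, 67.2 and 81.7 TPM on vehicle and 65.9, 77.9 and 66.5 TPM on GW4064. Those 2 groups overlapped, with a difference of -0.05 ± 0.08 and a 95% interval of -0.23 to 0.13 (limma, adjusted p = 0.883). Under GW4064 the knockout was higher than wild type by 0.51 ± 0.08 (limma, adjusted p = 0.00122), and on vehicle the genotypes overlapped (-0.05 ± 0.08, limma, adjusted p = 0.738). The responses of the 2 genotypes differed by 0.55 ± 0.12 (limma, adjusted p = 0.0264). That call was lost without any 1 of the 3 wild-type vehicle libraries, without wild-type GW4064 libraries 1 or 2 and without knockout vehicle library 1, with adjusted p up to 0.0739. It was also lost without a variance trend (limma, adjusted p = 0.052) and when the fat marker score was added as a covariate (limma, adjusted p = 0.0904). The fall in wild type and the genotype difference under GW4064 were called without each of the 12 libraries and in every other alternative.

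Slc7a7 was lower in the knockout under GW4064, and its response to GW4064 differed between genotypes. Its libraries held 124.6, 156.7 and 141.4 TPM in wild-type vehicle and 170.5, 154.9 and 167.5 TPM in wild-type GW4064. The groups touched, since the lowest GW4064 library lay 1.82 TPM below the highest vehicle library, and the difference of 0.23 ± 0.08 was not called (limma, adjusted p = 0.131). It was called without wild-type vehicle library 2, the highest of that group (limma, adjusted p = 0.0455). Knockout libraries gave 149.1, 134.9 and 150.7 TPM on vehicle and 116.6, 119.2 and 109.5 TPM on GW4064. All 3 GW4064 libraries were below the 3 vehicle libraries, yet the difference of -0.33 ± 0.08 missed the threshold (limma, adjusted p = 0.209). Under GW4064 the knockout stood at 70.1% of the wild-type mean, a log2 difference of -0.51 ± 0.08 with no overlap (limma, adjusted p = 7.8e-04). On vehicle the genotypes overlapped, with a difference of 0.04 ± 0.08 (limma, adjusted p = 0.726). The difference between responses was -0.56 ± 0.11 (limma, adjusted p = 0.0197). It was lost without wild-type GW4064 library 1, knockout vehicle library 1 or knockout GW4064 library 3 (limma, adjusted p up to 0.0594) and with the fat score as a covariate (limma, adjusted p = 0.0728). Slc7a7 shares 228 bases with the opposite-strand gene Oxa1l, which averaged 38.9 TPM and was lower in the knockout on vehicle by limma (-0.27, adjusted p = 0.0129) but in no other comparison. Whether the deposited values were counted by strand is not given in the sources used here.

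Slc3a2 encodes the heavy chain CD98, the partner of both light chains and of others in many cell types (Entrez Gene 17254, chr19:8706882-8723369, minus strand). It held 72.8, 73.2 and 76.2 TPM in wild-type vehicle libraries, against 63.6, 92.0 and 88.6 TPM in wild-type GW4064 libraries. The GW4064 group spanned the whole vehicle group, and 1 library lay below it and 2 above it (0.12 ± 0.11, limma, adjusted p = 0.628). In the knockout it stood at 89.7, 83.9 and 96.9 TPM on vehicle and 88.4, 96.0 and 86.6 TPM on GW4064. The knockout vehicle libraries were all above the wild-type vehicle libraries, by at least 7.72 TPM, and the difference of 0.28 ± 0.11 missed the threshold (limma, adjusted p = 0.121). It passed without wild-type GW4064 library 1 (limma, adjusted p = 0.0151) and when only the 2 groups compared were fitted (limma, adjusted p = 0.0302). Between GW4064 and vehicle in the knockout the difference was 0.00, with a 95% interval of -0.24 to 0.25.

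The ratio of Slc7a7 to Slc7a8 set the wild-type GW4064 libraries apart from the other 9. It was 1.71, 2.02 and 1.93 in wild-type vehicle libraries and 3.68, 3.12 and 3.28 in wild-type GW4064 libraries. In the knockout it was 2.17, 2.01 and 1.84 on vehicle and 1.77, 1.53 and 1.65 on GW4064. The mean went from 1.88 ± 0.162 to 3.36 ± 0.287 (SD, n = 3) in wild type and from 2.01 ± 0.162 to 1.65 ± 0.119 in the knockout, with no overlap in either genotype. Slc3a2 over Slc7a8 ranged from 0.944 to 1.04 in wild-type vehicle libraries and from 1.37 to 1.86 in wild-type GW4064 libraries. Both knockout groups lay between, at 1.19 to 1.3 on vehicle and 1.23 to 1.34 on GW4064. Slc3a2 over Slc7a7 was highest in knockout GW4064 libraries (0.758 to 0.806), above the 0.373 to 0.643 of the other 9. These ratios combine genes whose differences are given above and were not tested on their own.

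**Figure D3:**
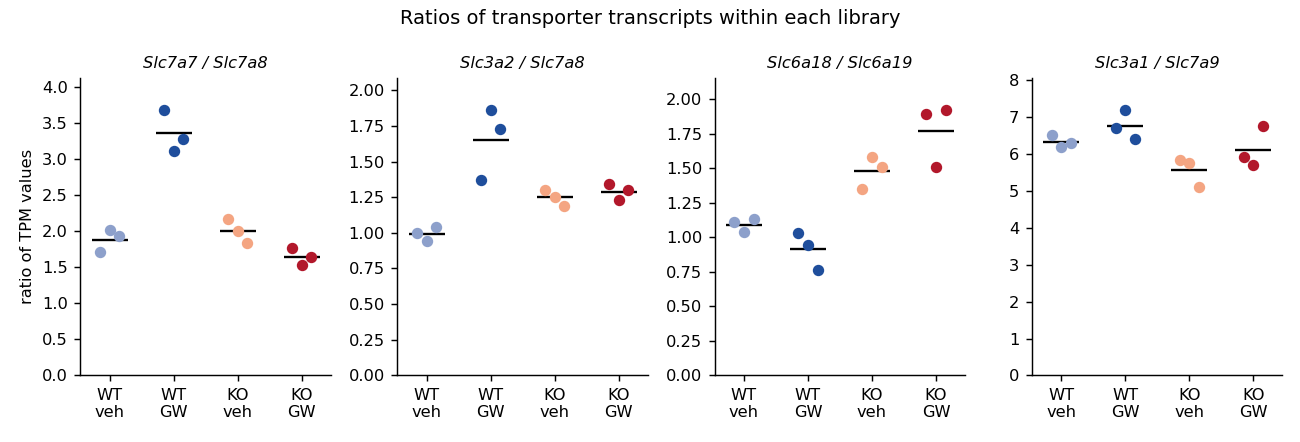
Ratios of TPM between transporter genes (vertical axis, from 0, a panel per ratio) in wild-type (WT) and knockout (KO) libraries given vehicle (veh) or GW4064 (GW); points are libraries and lines are group means. The ratio of Slc7a7 to Slc7a8 is 3.12 to 3.68 in wild-type GW4064 libraries and 1.53 to 2.17 in the other 9.

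Among the apical carriers, Slc6a18 and Slc6a19 were compared first, as members of 1 family that lie side by side. Slc6a19 encodes B0AT1, the main apical sodium-dependent carrier of neutral amino acids, and Slc6a18 encodes B0AT3, a related carrier. In mm10 Slc6a18 (Entrez Gene 22598) lies at chr13:73661750-73678023 and Slc6a19 (Entrez Gene 74338) at chr13:73681157-73700695, both on the minus strand. A gap of 3.13 kb with 0 entries separates them.

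Slc6a18 fell after GW4064 in wild type. It held 355.2, 410.5 and 383.6 TPM on vehicle and 298.9, 288.4 and 277.3 TPM on GW4064, and the groups were separated by 56.3 TPM. The mean fell by 24.8%, a log2 difference of -0.41 ± 0.08 (limma, adjusted p = 0.0115), which was called without each of the 12 libraries and in every other alternative. Knockout libraries held 391.8, 472.5 and 434.7 TPM on vehicle and 410.9, 384.5 and 454.0 TPM on GW4064. These groups overlapped, and the difference was -0.06 ± 0.08 with a 95% interval of -0.23 to 0.12 (limma, adjusted p = 0.853). The difference between the responses of the genotypes, 0.35 ± 0.11, was not called (limma, adjusted p = 0.114). Under GW4064 the knockout was higher by 44.5% of the wild-type mean, or 0.53 ± 0.08 (limma, adjusted p = 7.0e-04), a call kept in every alternative. On vehicle the difference of 0.17 ± 0.08 was not called and the groups overlapped (limma, adjusted p = 0.157).

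Slc6a19 was lower in the knockout under GW4064 and showed no called response to GW4064. It stood at 320.6, 396.2 and 340.2 TPM in wild-type vehicle libraries, against 290.1, 304.7 and 362.8 TPM in wild-type GW4064 libraries, which overlapped (-0.14 ± 0.09, limma, adjusted p = 0.435). Knockout libraries held 290.1, 298.5 and 287.2 TPM on vehicle and 217.4, 254.0 and 236.5 TPM on GW4064. The last group lay below all others, and its 3 libraries were below the 3 knockout vehicle libraries by at least 33.2 TPM, although that difference of -0.31 ± 0.09 was not called (limma, adjusted p = 0.269). Under GW4064 the knockout mean was 73.9% of wild type, -0.43 ± 0.09 (limma, adjusted p = 0.00734), in every alternative. On vehicle the groups did not overlap either, and the difference of -0.27 ± 0.09 missed the threshold (limma, adjusted p = 0.0791). Without wild-type GW4064 library 3 it was called (limma, adjusted p = 0.0496). The ratio of Slc6a18 to Slc6a19 was 1.04 to 1.13 in wild-type vehicle and 0.764 to 1.03 in wild-type GW4064 libraries, and 1.35 to 1.58 and 1.51 to 1.92 in the knockout groups.

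Slc6a19 needs collectrin, the product of Cltrn, to reach the apical membrane of the kidney. Cltrn was far more abundant than Slc6a19, with group means of 2493 and 2550 TPM in wild type and 2923 and 2653 TPM in the knockout. On vehicle it was higher in the knockout, by 0.23 ± 0.06 (limma, adjusted p = 0.0216), a call that was lost without wild-type vehicle libraries 1 or 3 or knockout vehicle library 3 (limma, adjusted p up to 0.0836). It was also lost when low genes were kept in and under quantile scaling (limma, adjusted p up to 0.15). Cltrn transcripts per Slc6a19 transcript were 6.62 to 7.41 in wild-type vehicle and 6.62 to 9.11 in wild-type GW4064 libraries. They were 9.55 to 10.6 in the knockout on vehicle and 10.3 to 12.8 on GW4064. All 6 knockout libraries were above the 6 wild-type libraries in this ratio.

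The cystine and dibasic amino acid exchanger is made of rBAT, encoded by Slc3a1 (Entrez Gene 20532, chr17:85028347-85064241, plus strand), and b0,+AT, encoded by Slc7a9 (Entrez Gene 30962, chr7:35449092-35466034, plus strand). Slc3a1 held 1089, 1106 and 1104 TPM in wild-type vehicle and 1198, 1135 and 1156 TPM in wild-type GW4064 libraries. The GW4064 group was wholly above the vehicle group, by 28.7 TPM, but the difference of 0.08 ± 0.04 was not called (limma, adjusted p = 0.356). Knockout libraries held 1060.0, 1064 and 1040 TPM on vehicle and 933.3, 986.8 and 1054 TPM on GW4064, which overlapped. Under GW4064 the knockout mean was 85.2% of wild type (-0.23 ± 0.04, limma, adjusted p = 0.00381), a call kept in every alternative. On vehicle it was 95.9% of wild type, with groups apart by 25.9 TPM, and the difference of -0.06 ± 0.04 was not called (limma, adjusted p = 0.376). Slc3a1 shares 765 bases with the opposite-strand gene Prepl, which averaged 25.7 TPM and was called in no comparison.

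Slc7a9 was called in no comparison. It held 167.2, 178.5 and 174.9 TPM in wild-type vehicle libraries, against 178.2, 157.8 and 180.5 TPM in wild-type GW4064 libraries. These overlapped, and the 95% interval of the log2 difference was -0.15 to 0.12. Knockout libraries held 181.9, 184.8 and 203.0 TPM on vehicle and 158.0, 172.9 and 155.9 TPM on GW4064. The GW4064 libraries were all lower, with a difference of -0.23 ± 0.06 that missed the threshold (limma, adjusted p = 0.246). On vehicle the knockout libraries were all above wild type (0.13 ± 0.06, limma, adjusted p = 0.19), and with median-of-ratios scaling this was called (limma, adjusted p = 0.0446). Slc3a1 was in excess of its light chain in every library, with a ratio of 5.12 to 7.19. The ratio was 6.20 to 6.52 in wild-type vehicle, 6.4 to 7.19 in wild-type GW4064, 5.12 to 5.83 in knockout vehicle and 5.71 to 6.76 in knockout GW4064 libraries.

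Slc7a13 encodes AGT1, a second light chain of rBAT found in the last segment of the proximal tubule. It averaged 821.3 TPM on vehicle and 981.9 TPM on GW4064 in wild type, against 556.5 and 666.6 TPM in the knockout. It was lower in the knockout on vehicle and under GW4064, by -0.56 ± 0.11 in each (limma, adjusted p = 0.00709 and 0.00357). It was not called for GW4064 in wild type (0.27 ± 0.11, limma, adjusted p = 0.191). Slc3a1 over Slc7a13 was 1.15 to 1.59 in wild-type and 1.39 to 2.10 in knockout libraries. Whether Slc7a13 and Slc7a9 differed from each other was not tested. Slc7a13 is on a list of 8 markers of that last segment (S3). On vehicle 1 of the 8 was called higher in the knockout and 3 lower (Slc7a13, Slc5a8 and Atp11a), with a median of -0.34. Under GW4064 2 were higher and 4 lower (median -0.36), and for GW4064 in wild type 0 were higher and 1 lower. Slco1a6, Slc22a7 and Slc5a10 calls were each lost without at least 1 library. The S3 sums on vehicle overlapped between genotypes (7008 to 7557 and 7031 to 7322 TPM).

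Slc1a1 encodes EAAT3, the apical carrier of glutamate and aspartate (Entrez Gene 20510, chr19:28835166-28913960, plus strand), and was the member that rose after GW4064 in wild type. It held 213.7, 205.4 and 211.3 TPM on vehicle and 255.9, 241.6 and 232.1 TPM on GW4064, with no overlap and a least gap of 18.4 TPM. The mean was 15.7% higher, a log2 difference of 0.21 ± 0.05 (limma, adjusted p = 0.0481). That call was kept without knockout vehicle library 1 or 2 and lost without any 1 of the other 10 libraries (limma, adjusted p up to 0.186). It was also lost with no filter on low values, with no variance trend or with the fat score as a covariate (limma, adjusted p = 0.0652, 0.1 and 0.0616). Knockout libraries held 233.4, 204.9 and 228.8 TPM on vehicle and 236.7, 220.9 and 230.4 TPM on GW4064. These overlapped, with a GW4064 difference of 0.05 ± 0.05 (limma, adjusted p = 0.81). The difference between the genotypes' responses was -0.16 ± 0.08 and was not called (limma, adjusted p = 0.272).

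Slc1a5 encodes ASCT2, a sodium-dependent exchanger of glutamine and other small neutral amino acids (Entrez Gene 20514, chr7:16781346-16798274, plus strand). It was the only member for which both GW4064 in wild type and the knockout on vehicle were called. It held 35.9, 35.7 and 35.7 TPM in wild-type vehicle libraries, against 27.6, 27.0 and 26.8 TPM in wild-type GW4064 libraries. The groups were 8.11 TPM apart with a spread inside each of under 1 TPM, and the mean fell by 24.1% (-0.39 ± 0.06, limma, adjusted p = 0.00264). Knockout libraries held 30.9, 26.8 and 27.0 TPM on vehicle and 30.1, 32.4 and 32.8 TPM on GW4064. All knockout vehicle libraries were below the wild-type vehicle libraries, by at least 4.80 TPM (-0.34 ± 0.06, limma, adjusted p = 0.00481). In the knockout, 2 of 3 GW4064 libraries exceeded all vehicle libraries, and the difference of 0.17 ± 0.06 was not called (limma, adjusted p = 0.325). Under GW4064 the knockout was thus higher than wild type, by 0.22 ± 0.06 (limma, adjusted p = 0.0225). That last call was lost on removal of wild-type GW4064 library 1, 2 or 3, or knockout GW4064 libraries 2 or 3 (limma, adjusted p up to 0.0769) and with the fat score as a covariate (limma, adjusted p = 0.052). The responses of the genotypes differed by 0.56 ± 0.08 (limma, adjusted p = 0.00492), a call kept without each of the 12 libraries and in every other alternative. The wild-type response, the genotype difference on vehicle and the difference between responses rest in part on the same 3 wild-type vehicle libraries.

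Several marker sums moved with these groups, and their part in the transporter differences was not tested beyond the fat score. The 4 fat markers summed to 20.3 to 30.5 TPM in wild-type vehicle libraries and to 1.5, 37.0 and 5.01 TPM in wild-type GW4064 libraries, and in no comparison was any of the 4 called. With the fat score in the fit, Slc7a8, Slc6a18 and Slc1a5 still fell after GW4064 in wild type. The haemoglobin-bearing list of blood and immune markers stood at 943.2 TPM or more in 4 libraries of 3 groups and at 57.1 TPM or less in the other 8, and 0 of its 5 tested members were called in any comparison. In each of those 4 libraries either Hbb-bs or Hba-a1 was high, and never both. A list of 8 markers of the early proximal tubule (S1 and S2) summed to 4955 to 5708 TPM in knockout GW4064 libraries. That was below all knockout vehicle (5740 to 6273 TPM) and wild-type GW4064 libraries (5946 to 6104 TPM). It overlapped the wild-type vehicle libraries (5687 to 6128 TPM). Slc34a1 alone gave 2217 to 3087 TPM of this sum per library. The 8 genes did not move as one, with 4 differences above 0 and 4 below between genotypes under GW4064, a median of -0.04, and 1 called higher and 2 lower. The 2 lower were Gatm (743.7 TPM in wild type and 228.8 in the knockout) and Slc34a1 (2768 and 2385 TPM), and the Slc34a1 call was kept only on removal of knockout GW4064 library 2. In that comparison, where Slc3a1, Slc6a19 and Slc7a7 were lower and Slc6a18, Slc7a8 and Slc1a5 higher, the list of 16 proximal tubule markers also went both ways. Over all genes 7.08% were higher there and 11.4% lower. Of the 16, 4 were higher (Slc27a2 0.33, Slc4a4 0.29, Slc5a10 0.45 and Slc13a3 0.23) and 6 lower, led by Slc5a8 (-0.90), Cubn (-0.40) and Gatm (-1.71). Removal of wild-type GW4064 library 1 or 3 or knockout GW4064 library 1 left 2 higher and 4 lower, and removal of knockout GW4064 library 3 left 3 and 4. For GW4064 in wild type 1 of the 16 rose (Cubn, 0.22 ± 0.04) and 1 fell (Slc27a2, -0.21 ± 0.05). The Cubn call was lost without wild-type vehicle library 1 or wild-type GW4064 library 1, and the Slc27a2 call without any 1 of the 6 wild-type or 3 knockout vehicle libraries (limma, adjusted p up to 0.173). With the fat score as a covariate both calls were lost. That of Slc27a2 was also lost under median-of-ratios and quantile scaling, with FPKM, with no filter and with no variance trend (limma, adjusted p up to 0.415). The 15 markers of other kidney cells gave 0 higher and 7 lower between genotypes on vehicle, against 3.19% and 9.73% of all genes. The sum of the 15 was 6309 to 6395 TPM in wild-type vehicle against 5944 to 6050 TPM in knockout vehicle libraries. Of those 7 calls 4 were left under median-of-ratios scaling, 4 on removal of wild-type vehicle library 1 or 3 or knockout vehicle library 3, and 3 on removal of knockout vehicle library 2.

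Beyond the 9 members, 44 other amino acid transporter genes were listed, of which 37 passed the filter. After GW4064 in wild type 2 of the 37 rose and 3 fell, against 2.48% and 2.32% of all genes. The median log2 difference of the 37 was -0.13, against -0.03 over all genes. Slc6a13, the GABA and taurine carrier GAT2, rose from 104.1 to 163.4 TPM (0.65 ± 0.05, limma, adjusted p = 4.9e-05). Slc6a6, the taurine transporter, rose from 246.1 to 397.7 TPM (0.70 ± 0.08, limma, adjusted p = 5.5e-04). Slc6a13 libraries held 100.4, 107.6 and 104.3 TPM on vehicle and 165.3, 167.9 and 157.0 TPM on GW4064, and the Slc6a6 groups did not overlap either.

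The 3 that fell in wild type carry neutral or aromatic amino acids. Slc16a10, the basolateral aromatic amino acid carrier TAT1, went from 42.2 to 28.2 TPM (-0.57 ± 0.10, limma, adjusted p = 0.00531). Slc38a3, the basolateral glutamine carrier SNAT3, went from 57.3 to 31.0 TPM (-0.87 ± 0.17, limma, adjusted p = 0.0147), and the call was lost without wild-type vehicle library 3 or wild-type GW4064 libraries 1 or 3 (limma, adjusted p up to 0.0658). Slc43a2, the basolateral carrier LAT4, went from 84.2 to 67.8 TPM (-0.31 ± 0.08, limma, adjusted p = 0.0438). Its call was kept only without wild-type vehicle library 3, knockout vehicle libraries 1 or 2 or knockout GW4064 library 1, and otherwise lost (limma, adjusted p up to 0.152). It was also lost in 7 of 11 other alternatives (limma, adjusted p up to 0.0965).

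In the knockout 0 of the 37 were called for GW4064 by limma, with 12 at an unadjusted p under 0.05 and a median of -0.01. For 6 of the 37, against 3.19% of all genes, the responses of the genotypes differed. They were higher in the knockout for Slc38a3 (1.31 ± 0.25, limma, adjusted p = 0.0169), Slc43a2 (0.54 ± 0.11), Slc16a10 (0.60 ± 0.14) and Slc7a1 (0.84 ± 0.19), the last encoding the cationic amino acid transporter CAT1. They were lower for Slc6a13 (-0.81 ± 0.08, limma, adjusted p = 3.0e-04) and Slc6a6 (-0.79 ± 0.12, limma, adjusted p = 0.00458). The Slc38a3, Slc6a13 and Slc6a6 calls were kept without each library. The Slc43a2 call was lost without wild-type vehicle library 1, wild-type GW4064 library 1 or knockout vehicle library 1. The Slc16a10 call was kept only without wild-type GW4064 library 3 or knockout vehicle libraries 2 or 3, and the Slc7a1 call only without wild-type vehicle library 2 or knockout vehicle library 3 (limma, adjusted p up to 0.102).

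**Figure D4:**
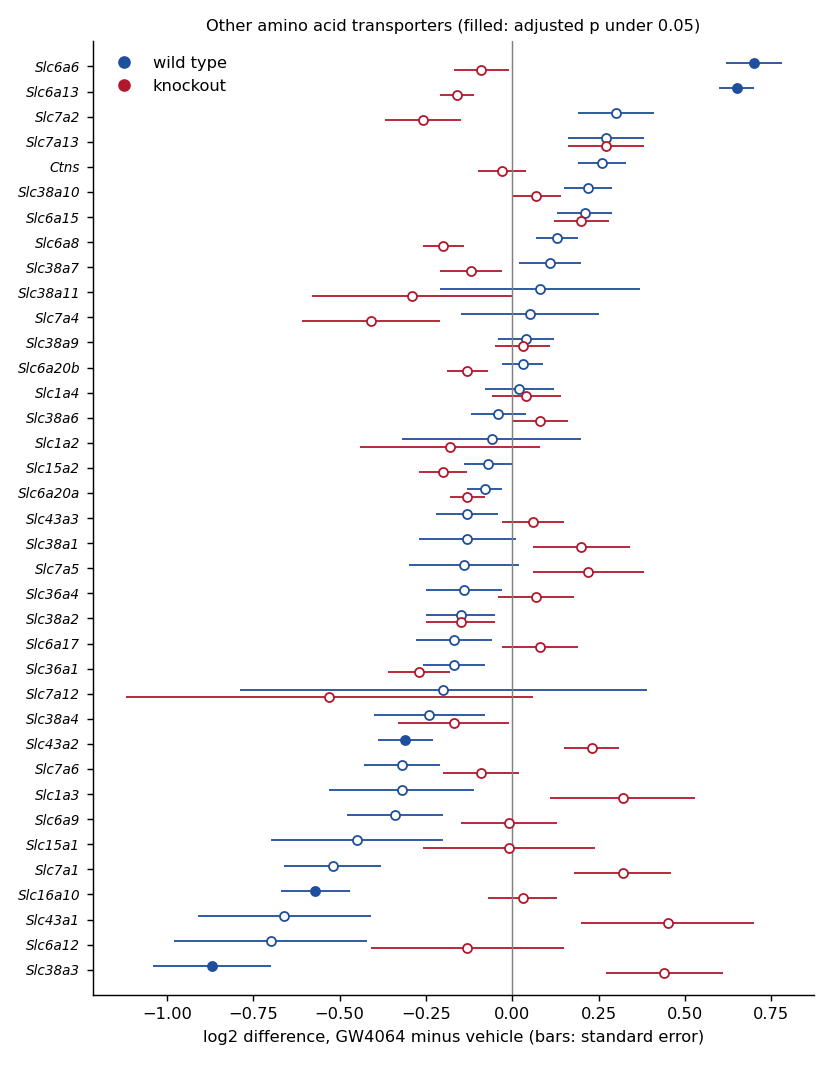
Log2 difference of GW4064 minus vehicle on the log2(TPM + 0.5) scale (horizontal axis) for the 37 other amino acid transporters tested (vertical axis, ordered by the wild-type value), in wild type (blue) and in the knockout (red); bars are standard errors and filled points passed an adjusted p of 0.05 in limma. Slc6a6 and Slc6a13 head the order at 0.70 and 0.65 in wild type, and Slc38a3 closes it at -0.87.

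Between genotypes on vehicle, 2 of the 37 were higher in the knockout and 6 lower, against 3.19% and 9.73% of all genes. Median-of-ratios scaling gave 6 higher and 3 lower, and quantile scaling 5 and 2, with the Slc36a1, Slc6a20a and Slc6a20b calls lost in both and that of Slc6a17 in the latter. Slc6a15, a neutral amino acid carrier, was higher by 0.77 ± 0.08 (limma, adjusted p = 3.0e-04) and Slc6a6 by 0.33 ± 0.08. Slc15a2, the peptide carrier PEPT2, was lower by -0.43 ± 0.07 (limma, adjusted p = 0.00318), with Slc7a13 above. Slc6a17 (-0.50 ± 0.11), Slc36a1 (-0.32 ± 0.09) and the near-identical pair Slc6a20a (-0.21 ± 0.05) and Slc6a20b (-0.19 ± 0.06) were also lower, and values of the pair are uncertain where reads could be shared. The Slc6a6 call was lost without wild-type vehicle libraries 1 or 3 or knockout vehicle libraries 1 or 2, the Slc6a17 call without wild-type vehicle library 3, and the Slc6a20a call without wild-type vehicle libraries 2 or 3 or knockout vehicle library 1. The Slc36a1 call was kept only without knockout vehicle library 3 or knockout GW4064 libraries 1 or 2, and the Slc6a20b call only without knockout GW4064 libraries 1 or 2 (limma, adjusted p up to 0.156).

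Under GW4064, 8 of the 37 were higher in the knockout and 9 lower, against 7.08% and 11.4% of all genes. The 6 higher genes of lowest p were Slc38a3 (1.88), Slc6a15 (0.76), Slc43a2 (0.68), Slc16a10 (0.77), Slc7a1 (0.66) and Slc6a9 (0.55), in log2 difference. The 6 lower genes of lowest p were Slc6a13 (-0.88), Slc15a2 (-0.56), the creatine carrier Slc6a8 (-0.37), Slc6a20b (-0.36), Slc7a2 (-0.63) and Slc6a6 (-0.46). Of these 12 calls only that of Slc6a9 was lost on leaving out a library, namely wild-type GW4064 library 1 or knockout GW4064 library 3 (limma, adjusted p up to 0.0765). Slc7a5 and Slc7a6, which encode other light chains of CD98, averaged 2.09 and 5.40 TPM, far below Slc7a7 and Slc7a8, and were called in no comparison. Slc7a11, the cystine exchanger of ferroptosis research, averaged 0.193 TPM and was not tested.

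Genes that respond to amino acid shortage through ATF4 were counted as a list of 17. After GW4064 in wild type 0 were higher and 1 lower (Nupr1, -1.04 ± 0.20), a call lost without wild-type GW4064 library 1 (limma, adjusted p = 0.0552), and in the knockout 0 were called. Between genotypes on vehicle 5 were higher and 2 lower, against 3.19% and 9.73% of all genes. Under GW4064 6 were higher and 1 lower, against 7.08% and 11.4% of all genes. On vehicle 3 were higher on removal of wild-type vehicle library 2 or 3 or of any knockout vehicle library, and under GW4064 3 on removal of wild-type GW4064 library 3 or knockout GW4064 library 2. The Mthfd2, Atf3 and Eif4ebp1 calls under GW4064 were also lost without wild-type GW4064 library 2. The lower genes on vehicle were Nupr1 (-1.07 ± 0.20, limma, adjusted p = 0.00647) and Cth (-0.22 ± 0.06), whose call was lost on removal of library 2 or 3 of either wild-type group or of any knockout vehicle library (limma, adjusted p up to 0.108). That Cth call was also lost under median-of-ratios and quantile scaling, with FPKM, with no filter and with no variance trend (limma, adjusted p up to 0.257). Asns, asparagine synthetase, averaged 3.47 and 2.67 TPM in the wild-type groups and 7.74 and 8.93 TPM in the knockout groups, a log2 difference of 1.04 ± 0.22 on vehicle and 1.61 ± 0.22 under GW4064 (limma, adjusted p = 0.0133 and 4.6e-04). Psat1 of serine synthesis was higher in the knockout by 0.88 ± 0.15 and 1.42 ± 0.15, and Sesn2 by 0.82 ± 0.10 and 0.96 ± 0.10. Atf4 itself was higher by 0.43 ± 0.09 on vehicle (limma, adjusted p = 0.0104). Under GW4064 its difference of 0.28 ± 0.09 (limma, adjusted p = 0.0483) was kept only without wild-type vehicle libraries 1 or 3, knockout vehicle library 1 or knockout GW4064 library 1. Cth, of cysteine synthesis, was lower by -0.32 ± 0.06 under GW4064 (limma, adjusted p = 0.0036).

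Of other regulators, Sgk1, a kinase that raises the activity of several carriers, was higher in the knockout on vehicle by 1.61 ± 0.19 (limma, adjusted p = 4.4e-04). Its group means on vehicle and GW4064 were 153.1 and 239.0 TPM in wild type and 462.4 and 300.4 TPM in the knockout. Under GW4064 the genotypes were not called different (0.31 ± 0.19, limma, adjusted p = 0.291), and the responses to GW4064 differed by -1.30 ± 0.26 (limma, adjusted p = 0.0229). That call was lost on removal of wild-type GW4064 library 1 or knockout vehicle library 1 or 3 (limma, adjusted p up to 0.0659) and with the fat score (limma, adjusted p = 0.0815). Myc was higher in the knockout by 0.93 ± 0.19 on vehicle (limma, adjusted p = 0.0113). Under GW4064 it was also higher, with means of 8.92 TPM in the knockout and 4.99 TPM in wild type (limma, adjusted p = 0.015). That second call was lost without wild-type GW4064 library 3 or knockout GW4064 library 3 (limma, adjusted p up to 0.059).

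For each member, the genes with the most similar course over the 12 libraries were found among those averaging at least 5 TPM. Genes whose symbols are gene models were left out. Similarity was measured by the root mean square difference of log2 values after each gene was centred on its own mean. The genes nearest to Slc7a8 were Slc35f3 (0.082), Mapk4 (0.087) and Adap2 (0.089), against a root mean square of 0.260 for Slc7a8 about its own mean. For Slc6a18 they were Cyp27a1 (0.091), Hsd17b7 (0.092) and Gse1 (0.1), against 0.245. The member nearest to Slc7a8 was Slc6a18, and the reverse, at 0.169. Slc7a7 was nearest to Rcc1 (0.085), Slc6a8 (0.098) and Sepsecs (0.098), against 0.202, and Slc6a19 to Elovl1 (0.091), Mir22hg (0.095) and Aspdh (0.106), against 0.237. Slc1a5 was nearest to Uimc1 (0.085), Tnks1bp1 (0.086) and Itga3 (0.086), against 0.163. Slc3a2 was nearest to another amino acid transporter, Slc1a4 (0.099), then Rcan3 (0.108) and Pdzrn3 (0.109), against 0.177. Slc3a1 was nearest to Faf1 (0.038), Dalrd3 (0.039) and Elovl7 (0.040), Slc1a1 to Ccdc50 (0.042), Eif3a (0.047) and Nsun2 (0.050), and Slc7a9 to Tanc2 (0.054), Spin1 (0.064) and Mlec (0.066), against 0.094, 0.094 and 0.105. These are descriptions over the same 12 libraries, with 3 per group.

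The sum of the 9 transcripts differed little between groups. It was 2453 to 2640 TPM in wild-type vehicle, 2451 to 2543 TPM in wild-type GW4064, 2496 to 2550 TPM in knockout vehicle and 2258 to 2426 TPM in knockout GW4064 libraries. The knockout GW4064 libraries were the 3 lowest of the 12.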

How the data were processed

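Total RNA of whole kidney went into TruSeq stranded libraries, per the labels' protocols. HISAT2, StringTie and Cufflinks were used with mm10, per the submitters' processing notes. The sources used here do not give versions, the role of each tool, the annotation or any use of strand. The authors deposited a table per library with TPM, FPKM and coverage. The deposited TPM values sum to 1000000 per library and were used for all levels and tests. The deposited FPKM values, a constant multiple of TPM within a library, were used as an alternative. The deposited coverage signal, a mean depth per base, was used for depth only. Entries that share an identifier (113 to 142 identifiers per library) were summed, and symbols came from the RefSeq gene table (GRCm38.p6) for 24462 of 24532 identifiers. No read counts were used, so count tests were not applied.

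The 14488 genes that reached 1 TPM in 3 or more libraries were kept. A model with a mean per group was fitted to log2(TPM + 0.5) of all 12 libraries with limma 3.58.1 in R 4.3.3, with variances that follow the mean level and Benjamini-Hochberg adjustment over all genes of a comparison. The pseudocount draws log2 differences of low genes toward 0. Errors are SD beside TPM and ratios and standard errors beside log2 differences. The script was tested on simulated data. Summaries and plots used numpy 2.4.6, pandas 2.3.3 and matplotlib 3.10.9 under Python 3.11.15.

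The members, the gene lists and the tests were chosen with earlier results of these data known. All members were named. Of the other transporters, called genes were named up to 6 per direction and comparison by lowest p, with 8 fixed genes, and of each other list up to 3 called genes per direction. Genes of marker lists beyond these are given as counts. Some genes that this rule gives are not reported here. Alternatives were other pseudocounts (0.1 and 1), filters (none, or 5 TPM), scalings, FPKM, no variance trend, only the groups compared, a replicate block, a fat score (mean log2 level of 4 fat markers) as covariate and leaving out each library.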

Additional observations from a re-analysis of the deposited data

Results flagged for a closer look

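For 3 of the 9 transporters the response to GW4064 differed between genotypes by the interaction term of the limma fit, given as the response in the knockout minus that in wild type on the log2 scale. Slc1a5 differed by 0.56, with 3 of 3 wild-type GW4064 libraries below all wild-type vehicle libraries and 2 of 3 knockout GW4064 libraries above all knockout vehicle libraries. Slc7a8 differed by 0.55, with 3 of 3 wild-type GW4064 libraries below all vehicle libraries and overlapping groups in the knockout. Slc7a7 differed by -0.56, with 2 of 3 wild-type GW4064 libraries above all vehicle libraries and 3 of 3 knockout GW4064 libraries below all vehicle libraries. The Slc1a5 difference stayed called without each of the 12 libraries, while those of Slc7a7 and Slc7a8 were each lost on leaving out one of several single libraries and with the fat score as a covariate.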

How the results depend on the processing

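Of 540 log2 differences of members recomputed without single libraries, 503 kept direction and side of the threshold, 24 lost a call, 3 gained one and 10 changed sign. Of 486 under other alternatives the counts were 469, 7, 2 and 8. No called difference changed sign. Sign changes without a library were for Slc7a9 after GW4064 in wild type (-0.05 to 0.05), for Slc1a1 (-0.01 to 0.08), Slc3a2 (-0.05 to 0.06), Slc6a18 (-0.13 to 0.01) and Slc7a8 (-0.13 to 0.04) after GW4064 in the knockout, and for Slc7a7 (-0.04 to 0.12) and Slc7a8 (-0.13 to 0.01) between genotypes on vehicle. With median-of-ratios scaling Slc7a9 was 0.02 after GW4064 in wild type, Slc3a2 -0.02 after GW4064 in the knockout, and Slc3a1 0.03 and Slc7a8 0.04 between genotypes on vehicle. Quantile scaling gave 0.01 for the last, FPKM gave 0.00 for Slc7a9 and -0.00 for Slc3a2, and the fat score gave -0.04 for Slc3a2. The cause was not tested.

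Members called numbered 2 rather than 1 between genotypes on vehicle with median-of-ratios scaling and with only the groups compared, and 1 to 2 without single libraries. For the difference between responses they numbered 1 rather than 3 with the fat score, and 1 to 3 without single libraries. Over all genes, counts without single libraries were 337 to 768 for GW4064 in wild type, 0 to 51 for GW4064 in the knockout, 913 to 1899 between genotypes on vehicle, 1732 to 2759 under GW4064 and 220 to 535 for the difference between responses. The fat score gave 428 genes for GW4064 in wild type and 207 for the difference between responses. For GW4064 in the knockout, where 2 were called, a pseudocount of 0.1, median-of-ratios scaling, quantile scaling and FPKM each gave 1, and no variance trend, only the groups compared and the replicate block each gave 0. Quantile scaling gave 411 higher and 271 lower for GW4064 in wild type, 674 and 591 between genotypes on vehicle and 1306 and 1321 under GW4064. FPKM in place of TPM gave 548 higher and 1021 lower on vehicle.

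Replicate numbers did not pair the libraries. Deviations of same-numbered libraries from their group means correlated at -0.0748 to 0.0829, 0 of 18 above 0.1, and 3 of 12 libraries correlated best with their own number. With the replicate block 675, 0, 1785, 2633 and 442 genes were called in the 5 comparisons, and 4, 0, 1, 6 and 3 members. Depth was lowest for Slc1a5, at 32.9 to 47.8 reads per base, and each group held 3 libraries.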
